A study of Mus musculus with 2 samples.

Results

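The H3K9me3 regions described here lay on exons of protein-coding genes and away from promoters. H3K9me3 is trimethylation of lysine 9 of histone H3, mapped by ChIP-seq in E14TG2a.4, a mouse embryonic stem cell line. The labels give the line as male, of strain 129/Ola and of embryonic day 3.5. There was 1 group of 2 biological replicates, each from its own biosample of the same line, with no second genotype, treatment or time. No control library was analysed here, and because the files were region lists without reads, depth is unknown. With 1 group of 2 replicates no test between conditions was possible, so values are given for each replicate and no p-value is reported. The regions were those of the third mm9 list, which stands beside the list of each replicate, and whether it pools the replicates is not stated. A region was a member if it overlapped an exon of a protein-coding gene (GENCODE M1 annotation, mm9) by at least 1 bp and no window of 1 kb either side of the start of a protein-coding transcript. Of 56116 regions, 2641 were members, which is 4.71%. The other regions were 9716 intronic (17.3%), 42169 intergenic (75.1%) and 1590 promoter regions (2.83%). The same rule gave 1971 members among 43006 regions of replicate 1 and 2347 among 53405 regions of replicate 2.

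H3K9me3 is bound by HP1 proteins and marks silent chromatin. In embryonic stem cells it is written largely by SETDB1, which the corepressor TRIM28 brings to endogenous retroviruses through KRAB zinc finger proteins. In other cell types the mark is also known inside genes, above all over the zinc finger exons at the 3′ end of zinc finger genes. Exons are mostly single-copy sequence, so a region on an exon can hold single-copy sequence, repeats beside the exon, or both. A base was called high-copy here when the 16-mer that starts there has 50 or more copies in mm9, counting both strands, which stands in for a repeat annotation.

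Coding stretches from 4 members are examples of long exons that members covered. They are not typical, as internal exons in members had a median length of 131 bp. Each stretch is 240 bases from mm9, within coding sequence of 1 exon and inside the member. All are printed 5′ to 3′ on the strand of the gene. They lie at chr2:76581581-76581820 (minus strand, Ttn, internal exon), chr3:93131681-93131920 (plus strand, Hrnr, exon 3 of 3), chr12:110830878-110831117 (minus strand, Rtl1, last exon) and chr17:21163386-21163625 (plus strand, Zfp160, last exon). In the first 3 sequences the capitals mark CpG dinucleotides, of which there are 5 in Ttn, 4 in Hrnr and 8 in Rtl1. In the Zfp160 sequence, which holds 1 CpG, the capitals mark 3 matches to the coding motif of the conserved linker between C2H2 zinc fingers, searched with the variable codon positions free.
Ttn: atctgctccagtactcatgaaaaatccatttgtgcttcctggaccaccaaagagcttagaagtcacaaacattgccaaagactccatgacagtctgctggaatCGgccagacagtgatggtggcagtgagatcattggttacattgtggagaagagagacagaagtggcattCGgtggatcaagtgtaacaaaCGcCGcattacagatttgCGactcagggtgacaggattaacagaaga
Hrnr: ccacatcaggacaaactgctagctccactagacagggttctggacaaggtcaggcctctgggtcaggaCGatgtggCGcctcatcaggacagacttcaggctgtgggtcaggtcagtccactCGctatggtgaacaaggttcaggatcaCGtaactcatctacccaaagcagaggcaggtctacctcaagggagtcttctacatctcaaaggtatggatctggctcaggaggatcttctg
Rtl1: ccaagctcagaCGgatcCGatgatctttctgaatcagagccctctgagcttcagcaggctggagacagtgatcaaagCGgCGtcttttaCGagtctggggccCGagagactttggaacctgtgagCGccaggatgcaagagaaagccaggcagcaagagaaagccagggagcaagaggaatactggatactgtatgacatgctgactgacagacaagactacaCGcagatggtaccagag
Zfp160: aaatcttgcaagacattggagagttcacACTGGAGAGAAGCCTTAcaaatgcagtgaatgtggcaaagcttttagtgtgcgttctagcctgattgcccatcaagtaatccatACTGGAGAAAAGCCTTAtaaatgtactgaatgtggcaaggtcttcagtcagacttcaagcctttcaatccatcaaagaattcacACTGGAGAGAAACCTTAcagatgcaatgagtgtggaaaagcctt
High-copy bases made up 0.417% of the Ttn sequence, 0.833% of the Hrnr sequence and none of the Rtl1 sequence. The Zfp160 sequence held 13.8%.

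Members were of moderate width and somewhat stronger than intronic and intergenic regions. Their median width was 3200 bp (quartiles 2000 and 6000 bp), against 3000 bp in intronic, 3800 bp in intergenic and 4200 bp in promoter regions. Their median fold enrichment, the authors' own linear value for each region, was 3.065, against 2.761 in intronic, 2.88 in intergenic and 3.174 in promoter regions. The order was the same in each replicate's own list: members had a median of 3.02 in replicate 1 and 3.61 in replicate 2, against 2.75 and 3.23 in intronic and 2.835 and 3.39 in intergenic regions. A fold enrichment of at least 4 was reached by 683 members, or 25.9%, against 18.0% of intronic, 22.1% of intergenic and 31.2% of promoter regions.

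Replicate support was similar to that of the other regions. Of the members, 1890 (71.6%) were overlapped by a region of both replicates, 498 by a region of replicate 2 alone, 53 by a region of replicate 1 alone and 200 (7.57%) by neither. Both replicates supported 66.1% of intronic and 73.9% of intergenic regions. Replicate 2 gave the higher fold enrichment in 1671 of the 1890 members, or 88.4%, and in 87.6% of all regions with both. A higher value in replicate 2 was therefore a feature of its list as a whole. The median over members supported by both was 3.38 in the third list, against 2.36 over the other members.

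Members held far less high-copy sequence than intronic and intergenic regions. High-copy bases made up 28.3% of member sequence, against 52.4% of intronic, 52.0% of intergenic and 31.6% of promoter sequence. In the replicates' own lists the share was 27.8% and 28.9% in members, against 53.8% and 52.8% in intronic regions, so the gap exceeded the difference between replicates. At the low end, 348 members (13.2%) had under 2% of high-copy bases, against 5.35% of intronic and 2.11% of intergenic regions. At the high end, 298 members (11.3%) were more than 50% high-copy, against 42.6% of intronic and 47.6% of intergenic regions. Members had 11.1 CpG per kb, against 10.3 in intronic and 9.67 in intergenic regions. Exons are poor in high-copy sequence, so part of these differences is built into the rule that members touch an exon.

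**Figure D1:**
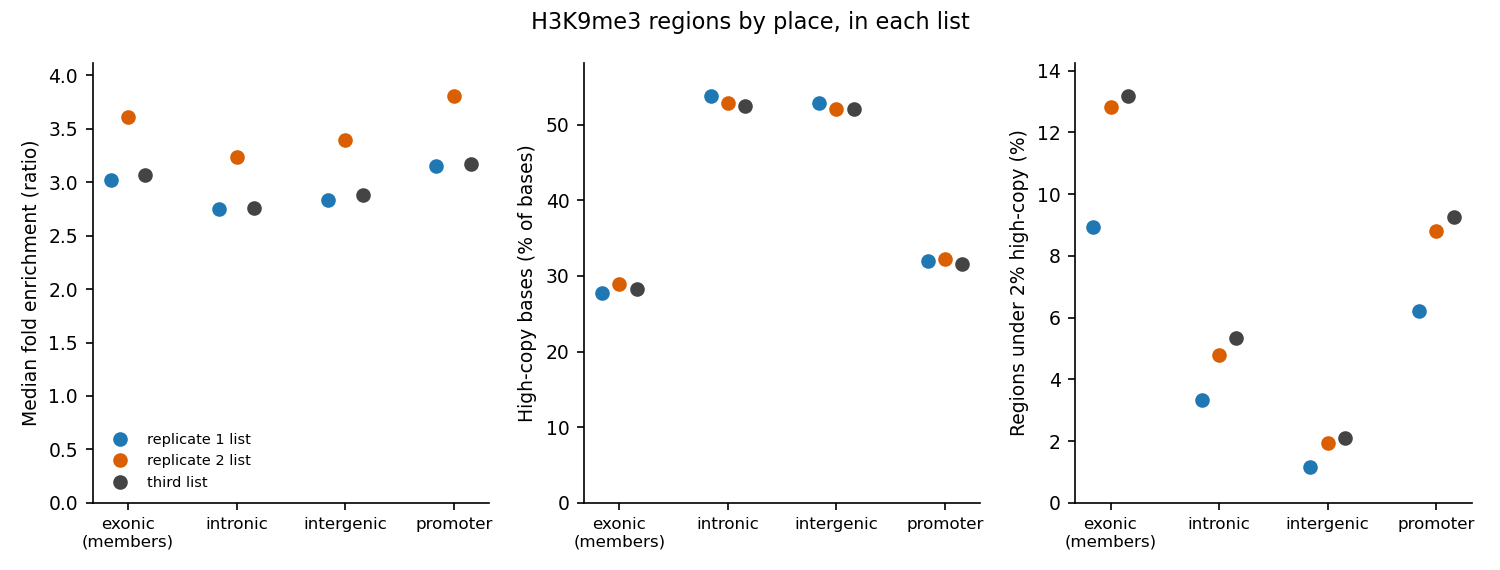
Median fold enrichment (a ratio), percent of bases that are high-copy and percent of regions with under 2% of high-copy bases, on the vertical axes, for members and for intronic, intergenic and promoter regions. Points are the lists of replicate 1, replicate 2 and the third list; in each list members had a lower high-copy share and a higher fold enrichment than intronic and intergenic regions.

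Most of a typical member was intron. Of the 13.75 Mb covered by members, 11.8% was exonic, 69.1% intronic and 19.07% outside protein-coding genes. The median member held 267 bp of exon (quartiles 134 and 719 bp, range 1 to 11400 bp), or 8.44% of its width. An internal exon was touched by 1946 members (73.7%), a last exon by 876 (33.2%), a first exon by 5 and the exon of a single-exon transcript by 9. A further 142 members touched only exons of transcripts that are not protein-coding. Coding sequence was touched by 2273 members (86.1%). At the other end of the scale, 499 members held at least 1000 bp of exon, and 69 lay wholly within exons.

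The more of a member was exon, the fewer high-copy bases it held and the less often both replicates had it. The 853 members with up to 5% of exon had a median high-copy share of 22.1%, a median fold enrichment of 3.307 and support from both replicates in 84.4%. The 141 members with over 75% of exon had a median high-copy share of 2.4%, a median fold enrichment of 2.679 and support from both replicates in 46.8%. These mostly exonic members were also narrower, with a median width of 1800 bp against 5200 bp, and richer in CpG, with 14.9 against 10.5 per kb. What part width, depth or sequence has in their lower support was not tested.

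Within members, exons lay towards the edges and high-copy sequence towards the centre. In the 2043 members of at least 2 kb, exonic bases made up 13.96% of the outermost 10% at either side and 8.415% of the middle. High-copy bases made up 19.9% of the outermost 10% and 39.4% of the middle. Both gradients were present in the lists of replicate 1 and replicate 2. Exonic share was 13.6% and 13.7% at the edge against 9.10% and 8.26% in the middle, and high-copy share was 19.01% and 20.02% at the edge against 38.0% and 40.6% in the middle. The 7045 intronic regions of the same minimum width had the high-copy gradient too, with 46.2% at the edge and 63.0% in the middle, so that gradient was shared with regions that touch no exon.

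**Figure D2:**
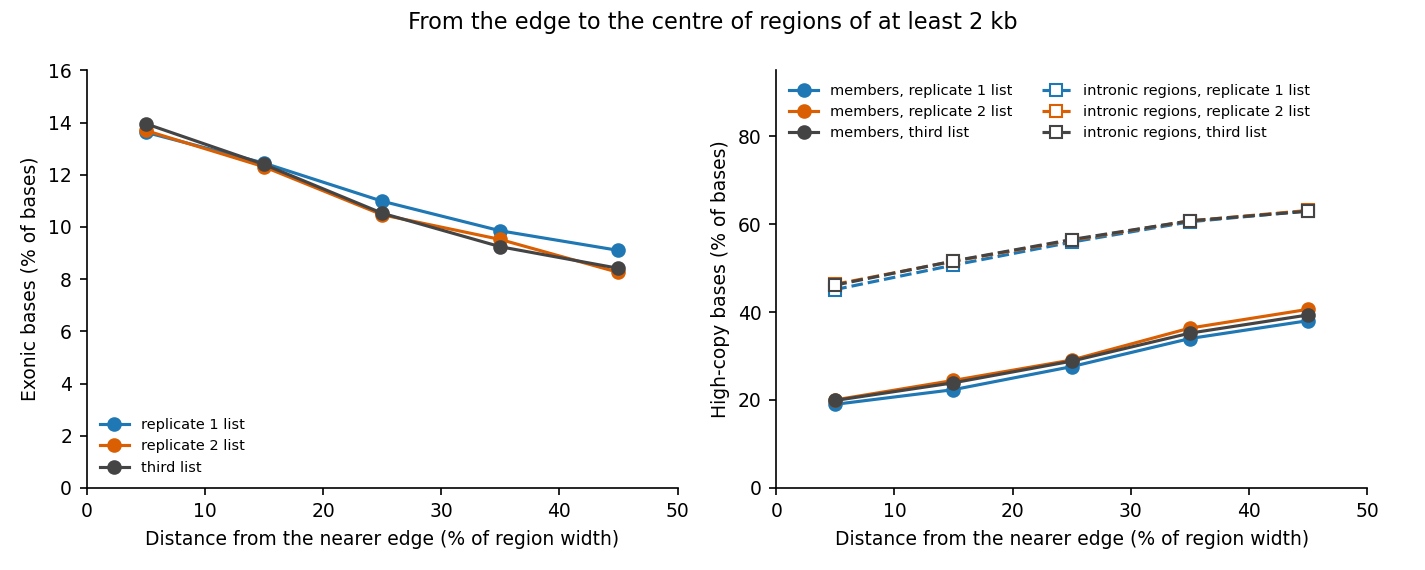
Percent of bases that are exonic (left) and high-copy (right) against the distance from the nearer edge, as percent of region width, in regions of at least 2 kb. Filled points are members and open squares intronic regions in each list; in members exonic share fell from the edge to the centre while high-copy share rose; intronic regions, which hold no exonic base by definition, lay above members in high-copy share at every distance.

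Exon sequence carried the mark less often than other sequence, and last exons more often than internal ones. Outside promoter windows 3.36% of exon bases lay in a region of any kind, against 5.54% of intron bases and 13.5% of bases outside protein-coding genes. The values were 2.69% and 3.02% for exons in replicates 1 and 2, against 4.36% and 5.06% for introns and 10.96% and 12.6% outside genes. Some exon classes stood above introns by this measure. Coding bases of last exons had 6.60%, with 5.40% and 6.02% in replicates 1 and 2. Exons of single-exon transcripts had 8.73%, with 7.68% and 7.94%. First exons had 7.30% in the third list but 3.85% and 4.17% in the replicates, below introns in each. Counting bases in members only, internal exons had 1.88% ± 0.147 and last exons 2.498% ± 0.183 (SD, n = 2 each). Within last exons, coding bases had 4.075% ± 0.434 and untranslated bases 2.14% ± 0.127 (SD, n = 2 each). Coding bases of last exons were higher than untranslated bases in each replicate, with 3.77% against 2.05% in replicate 1 and 4.38% against 2.23% in replicate 2. Coding bases of last exons made up 16.03% of the exonic sequence in members and 8.58% of all exonic sequence outside promoter windows.

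Counted as exons, members overlapped 3468 of 160647 internal exons in 1635 genes, a rate of 2.16%. Of these, 3095 were covered from end to end. Members overlapped 1280 of 37583 last exons in 867 genes, a rate of 3.41%, and 679 were covered from end to end. Last exons in members were long, with a median of 934.5 bp against 630 bp for all last exons, while internal exons in members had a median of 131 bp against 123 bp. A longer exon is more likely to be touched, so the share of bases rather than of exons is given by length.

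Long internal exons carried the mark more than short ones. The share of bases in members was 1.75% for internal exons under 100 bp, 2.13% from 100 to 200 bp, 2.42% from 200 to 500 bp, 2.53% from 500 to 1000 bp, 4.24% from 1000 to 3000 bp and 7.32% at 3000 bp or more. The longest bin rests on 11 exons of 113, in 10 genes. It held 463428 bases, and 1 Ttn exon alone gave 11400 of those in members. The 2 longest bins had 3.30% and 6.96% in replicate 1 and 3.66% and 4.73% in replicate 2, so the step at 1000 bp was present in both replicates and the longest bin differed between them. Along the gene, 1.75% of internal exons in the first 20% of the gene were in members of the third list, against 2.39% in the last 20%. Regions that reach a promoter window are not members, so a lower share near the gene start is partly built into the rule. By length, the share of last exon bases in members had a smaller range, from 1.96% under 100 bp to 3.30% at 3000 bp or more. In a region of any kind the share was 2.93% under 100 bp, 4.23% from 200 to 500 bp and 3.43% at 3000 bp or more. By that measure the longest last exons were not the highest.

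**Figure D3:**
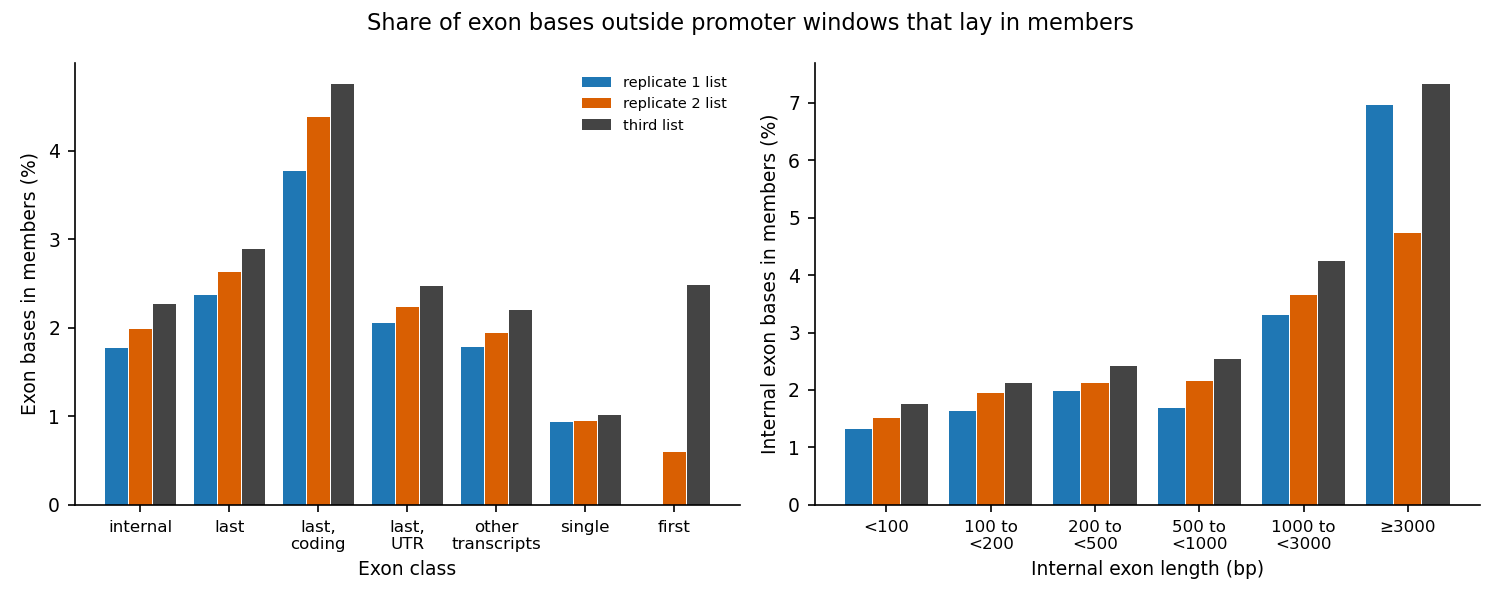
Percent of exon bases outside promoter windows that lay in members, by exon class (left) and by internal exon length in bp (right), as bars for each replicate list and the third list. Coding bases of last exons were the highest class in each list, first exons were near 0 in the replicate lists, and internal exons of at least 1000 bp exceeded shorter ones in each list.

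Exon sequence in members held few high-copy bases, but more than exon sequence in no region. Over all exons the share was 7.31% in members and 3.655% in no region. High-copy bases made up 1.37% of coding bases of internal exons in members, against 0.788% of those in no region. For coding bases of last exons the shares were 5.07% in members and 2.01% in no region, with 22.0 CpG per kb in members and 27.7 in no region. The share was 10.4% in members and 5.31% in no region for untranslated bases of last exons, and 16.9% and 7.425% for exons of other transcripts. Around the 3022 whole internal exons of up to 500 bp in members, high-copy share was 6.94% within 250 bp and 16.7% at 2000 to 4000 bp. Around the 152783 such exons in no region it was 5.53% and 11.1%. The sequence around marked internal exons was therefore richer in high-copy bases, with the wider gap at the greater distance. Introns inside members were 29.8% high-copy, against 12.6% for introns in no region.

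Only 5 members of the third list touched a first exon. A low count is built into the rule, which leaves out regions at start sites. In the third list 7.30% of first exon bases outside promoter windows lay in a region of any kind. The share was 2.90% for internal and 3.61% for last exons. First exons had 3.85% in replicate 1 and 4.17% in replicate 2. In the third list first exons made up 0.465% of exonic bases in members, against 0.476% of all exonic bases outside promoter windows. The 5 first exons were long or belonged to a shorter transcript. In Frem2 and Frem3, which encode extracellular matrix proteins of basement membranes, the first exon is coding and over 5 kb long (chr3:53455867-53461277, minus strand, and chr8:83134938-83140133, plus strand). Members covered 3334 bp of the Frem2 exon and 4000 bp of the Frem3 exon, with fold enrichments of 1.96 and 1.545 in the third list, and no region of either replicate overlapped them. In Chst7, which encodes a sulfotransferase, 134 bp were covered, with 7.461 in replicate 2 and no region in replicate 1. In Gpr26, an orphan G protein-coupled receptor gene, 78 bp were covered, with 3.962 in replicate 2 and none in replicate 1. The Tulp4 exon was first in one transcript and internal in others, and its member had a fold enrichment of 1.19 in replicate 1 and 1.364 in replicate 2. First exon bases in members therefore rested mostly on the third list, with 2.49% there against 0% in replicate 1 and 0.598% in replicate 2. These genes were chosen after their values were seen.

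The strongest members included high-copy ones and ones with few high-copy bases. Strength is the mean fold enrichment of the 2 replicates, taking in each the strongest region on the member, among members with both. Of the 10 strongest with at least 200 exonic bp, 6 were over 85% high-copy and between 2000 and 7400 bp wide. They lay in Pld1 (phospholipase D), Zfp706 (a small zinc finger protein), Adamts13 (the protease that cleaves von Willebrand factor), Fmo1 (a flavin-containing monooxygenase), Abhd2 (a hydrolase) and Ccrn4l (nocturnin, a deadenylase-related protein). The Pld1 member, chr3:27961601-27969000, had 9.21 in replicate 1 and 14.35 in replicate 2, a mean of 11.8 ± 3.63 (SD, n = 2), and was 96.5% high-copy. Its 565 exonic bp belonged to a transcript of the gene that is not protein-coding. The Fmo1 member, chr1:164770601-164777800, had 9.19 and 13.6 and was 97.1% high-copy. Its 595 bp were the last exon of a shorter transcript, with 62 coding bp. The Ccrn4l member, chr3:51043801-51049400, had 8.98 and 13.5, and 5273 of its 5600 bp were exon of a transcript that is not protein-coding. None of these 6 members held more than 62 bp of coding sequence, so here the exon was mostly annotated within high-copy sequence.

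Ezr was a strong member over ordinary coding exons. Ezr encodes ezrin, which links the plasma membrane to actin. Its member, chr17:6935801-6966200, was 30.4 kb wide and held exons 2 to 13 of 13, with 99.3% of the coding bases. Fold enrichment was 10.04 in replicate 1 and 13.07 in replicate 2, a mean of 11.6 ± 2.15 (SD, n = 2), and 4.615% of the member was high-copy. In the mm10 lists, which are of narrow peaks, 48.9% of the Ezr gene body was covered in replicate 1 and 47.8% in replicate 2, a high value among the named genes. Genes with most of their coding bases in mm9 members could have little mm10 coverage: Hrnr had 4.43% and 7.24% of its body covered and Cyp3a44 2.63% and 6.16%. Of 81 named genes with an mm10 position, 70 had a replicated mm10 peak in the body. No share over all genes stands beside this count. Genes with a member were also long, with a median of 50.01 kb against 18.5 kb over all genes tested. The count is therefore a description and not support for the members. Among the genes of the strongest high-copy members above, Adamts13 and Zfp706 had no mm10 coverage, and Ccrn4l had no mm10 position. Coverage in replicates 1 and 2 was 0.408% and 1.36% for Pld1, 1.38% and 0.961% for Fmo1, and 0.523% and 0.440% for Abhd2. These are shares of the whole gene body, of which the members filled unlike parts. The members of Pld1, Fmo1 and Abhd2 were 7.4, 7.2 and 5.8 kb wide, in genes of 194.7, 37.0 and 92.3 kb. The Ezr gene is 44.7 kb long. A low share of the body therefore does not show whether the member itself was covered.

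Other strong members touched 1 or 2 exons of the gene. The Padi1 member, chr4:140377201-140382400, covered internal exon 11 of 16 of this peptidylarginine deiminase gene, with 9.79 in replicate 1 and 11.5 in replicate 2. The Lrrc68 member, chr7:20121001-20129800, touched internal exons 2 and 3 of 13 with 8.255 and 12.1. These members were 9.06% and 8% high-copy. The Kif6 member, chr17:50046801-50068600, covered 1071 bp of the last exon of this kinesin gene, 14 of them coding, with 8.09 and 11.6. Slc2a9, a urate transporter gene, and Vmn2r35, a pheromone receptor gene, had members of 50.2% and 78.5% high-copy sequence. Their exonic bases were far less repetitive, at 1.69% and 13.6%.

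**Figure D4:**
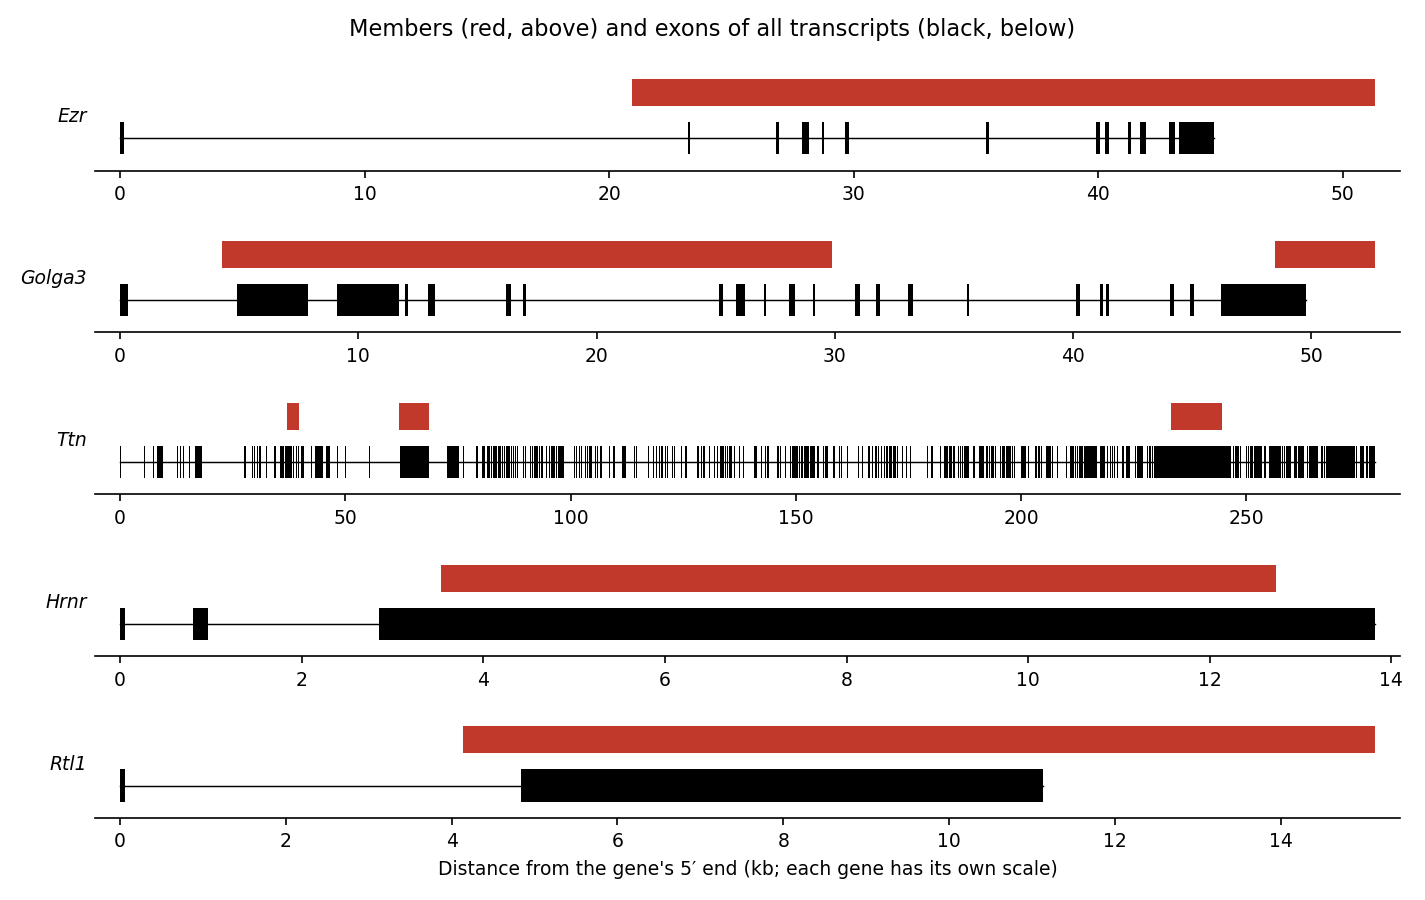
Members (red bars, upper row) and exons of all transcripts (black boxes, lower row) of Ezr, Golga3, Ttn, Hrnr and Rtl1, against distance from the 5′ end of the gene in kb, each gene on its own scale. The Ezr member spans exons 2 to 13, while the widest Ttn member lies inside 1 exon.

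The Ttn members lay mostly on very long coding exons and were between 0.227% and 1.32% high-copy. The Ttn gene encodes titin, the giant spring protein of muscle sarcomeres, and held 3 members with 19741 bp of coding sequence, 17.6% of the total. The widest, chr2:76576001-76587400, lay entirely inside internal exon 309 of 347 and was 11400 bp wide, the sequence shown first above. It had a fold enrichment of 3.78 in replicate 1 and 4.535 in replicate 2, a mean of 4.16 ± 0.534 (SD, n = 2), and was 0.325% high-copy. The second, chr2:76752001-76758600, covered 6520 bp of the last exon of a shorter Ttn transcript, with 2.08 and 5.07. The remaining one, chr2:76780801-76783600, covered internal exons 28 to 31 with 2.005 and 2.66. Replicate 2 was higher at each of the 3, and the second differed most between replicates.

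In Hrnr and Rtl1 the member lay on a long final exon of the transcript with the longest coding sequence. In Hrnr only 2720 of the 9200 exonic bp were last exon in every coding transcript that holds them. Hrnr encodes hornerin, a repetitive protein of the cornified skin layer. Its member, chr3:93127201-93136400, held 9200 coding bp, 89.9% of the total, with 4.43 in replicate 1 and 6.05 in replicate 2, a mean of 5.24 ± 1.14 (SD, n = 2). Hornerin repeats are tandem repeats within the gene, and only 0.25% of the member was high-copy by the genome-wide 16-mer count. Rtl1 is an imprinted gene derived from a retrotransposon and expressed in placenta. Its member, chr12:110823401-110834400, held all 5232 coding bp with 3.44 and 4.58, a mean of 4.01 ± 0.805 (SD, n = 2), and was 3.99% high-copy. Peg10, an imprinted gene of similar retrotransposon descent, had all 3015 coding bp in a member, chr6:4704201-4708000, with 5.03 in replicate 1 and 5.66 in replicate 2.

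The remaining genes with the most coding bases in members differed in replicate support. Fat2, which encodes an atypical cadherin, had 5201 coding bp in 2 members. The stronger, chr11:55051601-55069800, covered exons 22 to 24 of 24 with 6.79 in replicate 1 and 10.0 in replicate 2, and the other, chr11:55093601-55098800, covered 4059 bp of exon 10 with 1.61 and 2.09. Samd9l, an interferon-induced gene, had 4478 coding bp (94.5%) in a member with 2.91 and 3.485. A region of replicate 1 overlapped that member, but by its own list replicate 1 had 0 bp of Samd9l in members. The predicted gene 3110047P20Rik had 4075 coding bp in 2 members, of which the wider, chr5:64195601-64200600, had 1.81 and 2.14. Frem3, described above, and Zfhx3, which encodes a zinc finger homeodomain protein, had 4000 and 3670 coding bp in members without a region in either replicate.

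Some genes had many separate internal exons in members. Mug2, which encodes the liver protease inhibitor murinoglobulin, had 26 internal exons in 3 members, and the widest, chr6:121989201-122031600, ran over exons 12 to 30 of 35. That member was 42.4 kb wide, with 2.845 in replicate 1 and 3.16 in replicate 2, and was 41.0% high-copy. Another Mug2 member, chr6:121986001-121988000 over exons 9 to 11, had no region in replicate 1. Lama1, which encodes the laminin alpha 1 chain of basement membranes, had 22 internal exons in 3 members. The widest run, exons 43 to 60 of 63 at chr17:68148001-68167400, had 2.94 and 4.935, and the strongest, exons 62 and 63 at chr17:68168401-68187800, had 7.07 and 11.2. Golga3, which encodes a golgin, had 13 internal exons in a member at chr5:110610001-110635600 with 6.22 and 9.96. Gm14085 and Hmcn1, the gene of the extracellular protein hemicentin, had 12 internal exons each in 3 members. At Gm14085 the strongest, over exons 11 to 17 of 18, had 4.60 in replicate 1 and 5.65 in replicate 2. At Hmcn1 the widest, over exons 58 to 67, had 3.91 and 3.57, with the higher value in replicate 1. Another Hmcn1 member, chr1:152491401-152493800 over exon 68, had no region in replicate 1.

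Of 20309 protein-coding genes with exonic sequence outside promoter windows, 2239 held a member, which is 11.0%. A single member was held by 1907 of them, and 20 held at least 4, up to 8. The genes were large, with a median of 13 exons and 50.01 kb, against 8 exons and 18.5 kb over all genes tested. Gene size matters for every list that follows. The share of genes with a member was 4.73% for genes of 1 to 5 exons, 9.89% for 6 to 10, 14.6% for 11 to 20, 20.4% for 21 to 30, 27.9% for 31 to 50 and 48.2% for 51 or more. In 245 genes members held at least 50% of the coding bases, and in 56 genes all exonic bases outside promoter windows. By chromosome, 1.19% of X chromosome regions were members, against a range of 3.11% to 7.22% over the autosomes, and 44 of 850 X-linked genes (5.18%) held a member.

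Zinc finger genes, the family in which exonic H3K9me3 is best known, were close to the share over all genes and above that of genes with few exons. Of 437 C2H2 zinc finger genes, 56 held a member, which is 12.8% against 11.0% of all genes, with 50 in replicate 1 and 53 in replicate 2. The median zinc finger gene had 5 exons, and over all genes of 1 to 5 exons the share was 4.73%. At least 200 exonic bp were in members for 48 of them, or 10.98%, against 7.38% of all genes. The strongest were Zfp706, Zfp532, Zfp277 and Zfp160. The Zfp532 member held 2337 coding bp of internal exon 3 of 6, with 7.94 in replicate 1 and 11.7 in replicate 2. The Zfp277 member, chr12:41121001-41142400, had 7.30 and 9.90 and touched 378 bp. These exonic bases were 85.7% high-copy, and those of Zfp706 76.1%. The Zfp160 member, chr17:21162201-21183000, covered 3392 bp of the last exon and 86.1% of the coding bases, with 5.24 and 8.72, a mean of 6.98 ± 2.46 (SD, n = 2). Its coding stretch of 1679 bp held 12 matches to the linker motif, 3 of which are in the sequence above.

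The linker motif was more frequent in members than in intronic and intergenic regions, and less frequent than in promoter regions. Searched on both strands, with overlapping matches counted, it occurred in 53 of 2641 members (2.01%), against 0.0206% of intronic, 0.315% of intergenic and 3.71% of promoter regions. Intronic and intergenic regions hold no exon of a protein-coding gene by definition. A lower frequency of a coding motif there is therefore built into the rule. Of the 57 members named by a C2H2 gene, 30 held it, and the other 23 members with a match were named by other genes. A match is a description of the sequence and does not show that a factor binds there.

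Chemosensory, xenobiotic and immune gene families of clustered, similar genes differed widely. Most of these families have a median of 6 to 10 exons, for which the share over all genes was 9.89%. Of 125 type 2 vomeronasal receptor genes, which have 6 exons in the median, 26 held a member (20.8%), with 20 in replicate 1 and 22 in replicate 2. Vmn2r46 had 8.54 and 11.1 over its last exon. Of 420 olfactory receptor genes tested 3 held one (0.714%), and of 59 type 1 vomeronasal receptor genes 1, Vmn1r90. These are mostly single-exon genes, whose exon lies largely in the promoter window. Of 98 cytochrome P450 genes 23 held one (23.5%), with 19 in replicate 1 and 22 in replicate 2. The Cyp3a44 member, chr5:146542401-146615800, was 73.4 kb wide, held exons 2 to 13 of 13 and had 3.52 and 4.14. Of 35 killer lectin receptor genes 11 held one (31.4%), with 11 in replicate 1 and 10 in replicate 2. The Klrb1c member, over 1942 bp of the last exon of this natural killer cell receptor gene, had 5.70 and 7.64. Nearer to the share over all genes, serpins had 8 of 60 (13.3%) and H2 genes 4 of 36 (11.1%). The remaining counts were 2 of 21 UDP glucuronosyltransferases, 3 of 39 defensins and 5 of 67 keratins and keratin-associated proteins taken as one list. Values for near-identical genes of these families are uncertain, because the sources used here do not say how reads that map to several places were assigned.

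Collagen and ATP-binding cassette transporter genes held members more often than all genes, as did genes with many exons in general, while solute carriers were near the share over all genes. Of 44 collagen genes, with a median of 48 exons, 16 held one (36.4%), with 13 in replicate 1 and 16 in replicate 2. The Col6a5 member, chr9:105831601-105844000, held 2322 coding bp of internal exons 4 to 8 of 42 with 4.52 and 6.535. The Col4a4 member, chr1:82490001-82513200, held exons 21 to 28 of 49 with 5.58 and 7.67. Of 50 ATP-binding cassette transporter genes, with a median of 30 exons, 17 held one (34%), with 16 in each replicate. The Abca17 member, chr17:24401001-24421800, covered exons 23 to 30 of 30 with 5.67 and 9.09. Of 355 solute carrier genes, with a median of 11 exons, 46 held one (12.96%), against 14.6% over all genes of 11 to 20 exons, with 38 in replicate 1 and 42 in replicate 2. Of 16 fibroblast genes, listed as markers of feeder cells, 4 held one, and these were Fn1, Fbn1, Postn and Pdgfrb, with mean fold enrichments between 2.36 and 4.01. The median of that list was 23 exons. For genes of 31 to 50 exons the share over all genes was 27.9%, and for 21 to 30 exons 20.4%, which is the background to set these lists against.

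Imprinted genes held members in 10 of 35 cases (28.6%), with 8 in replicate 1 and 10 in replicate 2, against 11.0% of all genes and 9.89% of genes of 6 to 10 exons. Their median was 10 exons. Beside Peg10 and Rtl1, the rule named Commd1, with 2.90 in replicate 1 and 4.56 in replicate 2 over a last exon, and Sgce, with 2.995 and 3.25 over internal exon 7 of 12. Of 31 germ cell and meiosis genes 5 held one (16.1%), with 4 in replicate 1 and 5 in replicate 2. Their median was 16 exons, and over all genes of 11 to 20 exons the share was close to it, at 14.6%. These included Dmc1, the meiotic recombinase gene, with 3.95 and 5.14 over exons 9 to 12 of 14, and Sycp1, a gene of the synaptonemal complex, with 3.19 and 3.74. Stk31 had 3.345 and 4.87 and Tdrd9, which encodes a piRNA pathway helicase, 4.26 and 6.17.

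Lists with few members or none included pluripotency genes, lineage regulators and housekeeping genes, but also secretoglobins, clustered protocadherins and early 2-cell embryo genes. None of 20 pluripotency genes, 27 lineage regulators, 18 housekeeping genes, 12 secretoglobins, 24 clustered protocadherins and 12 early 2-cell embryo genes held one in the third list. The replicate lists added 1 housekeeping gene in replicate 2 and 1 early 2-cell embryo gene in replicate 1. Of 90 ribosomal protein genes tested 1 held one (1.11%), and of 40 Hox genes 1, Hoxc10, whose last exon was in a member of the third list. Regions of both replicates overlapped that member, with 1.88 in replicate 1 and 2.515 in replicate 2, but Hoxc10 held no member by either replicate's own list. Of 28 genes of the H3K9 methylation machinery 1 held one, Pphln1, which encodes periphilin of the HUSH complex, with 4.79 in replicate 1 and 5.685 in replicate 2 over internal exon 5 of 10. Several of these lists are of short genes, with a median of 5 exons for pluripotency, lineage and ribosomal protein genes. Over all genes of 1 to 5 exons the share was 4.73%, so a count of 0 in lists of this size is near the background. The share over all genes was 9.89% at 6 to 10 exons, where housekeeping genes have their median of 9, and 14.6% at 11 to 20 exons, where the H3K9 machinery has its median of 16.5.

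**Figure D5:**
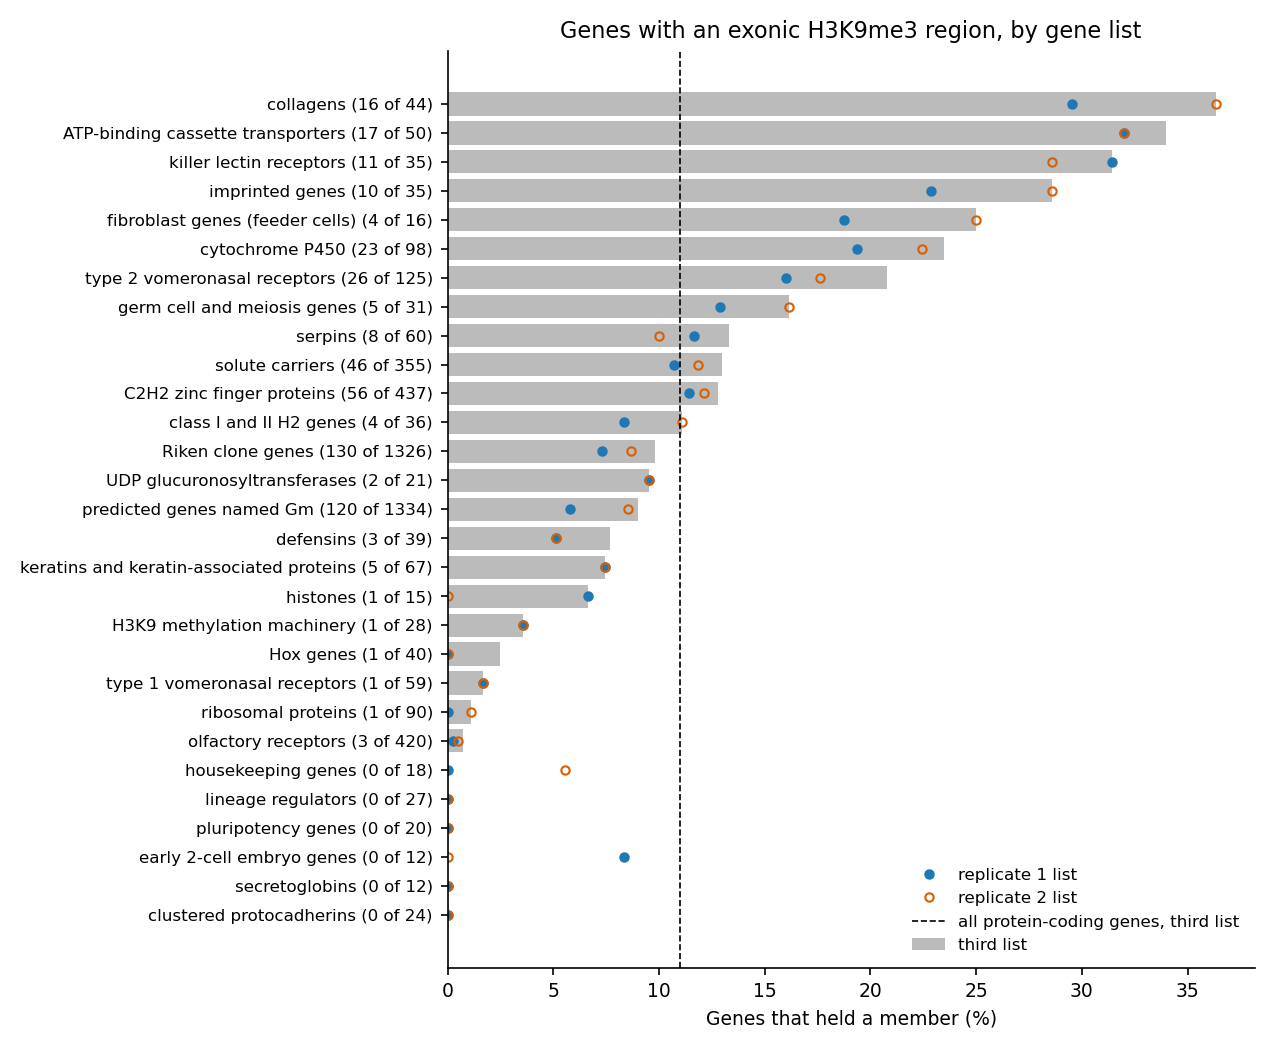
Percent of genes in each list that held a member, with the number of genes beside the name; bars are the third list, points the replicate lists and the dashed line the 11.0% of all protein-coding genes tested. Collagens, ATP-binding cassette transporters and killer lectin receptors lay above 30%, and C2H2 zinc finger genes lay near the line.

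The median distance of a member to the nearest start site of a protein-coding transcript was 17.0 kb (quartiles 6.69 and 41.7 kb). Just inside the limit, 76 members lay over 1000 and up to 1500 bp from a start site, with a median fold enrichment of 3.106. Just outside it, 92 exonic regions lay over 500 and up to 1000 bp from one and were left out, with a median of 3.22. The 109 members with under 50 exonic bp had a median of 2.95, and 1567 of the 2641 members held at least 200 exonic bp.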

How the data were processed

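Peak lists of H3K9me3 ChIP-seq from 2 replicates of 1 stem cell line were used, with no reads. Per the deposited file lists, the mm9 lists are of broadPeak and the mm10 lists of narrowPeak type. The fold enrichment of each region, a linear ratio, and its linear q-value in mm9 were deposited by the authors. In mm10 the authors deposited a −log10 q-value for each peak. The caller, the aligner and what the fold is relative to: not given in the sources used here. How reads that map to several places were handled is not given either and could change the values at repeats. All mm9 boundaries were multiples of 200 bp, which limits how exactly an exon can be placed. The depth of each sample is unknown, so no interval could be given.

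Regions were intersected with GENCODE M1 (Ensembl 65) exons and the NCBIM37 (mm9) sequence in Python 3.11.15 with numpy 2.4.6, pandas 2.3.3 and matplotlib 3.10.9. The reference sequence is of another mouse strain than the line. The interval code was tested on simulated data against a base-by-base count. Exon classes come from protein-coding transcripts, and bases of more than 1 class were kept apart as mixed. A replicate's value at a member is its strongest overlapping region. Gene body coverage in mm10 used RefSeq gene positions of GRCm38.p6, and no coordinates were converted. Of 22367 protein-coding genes, 20309 had exonic bases outside promoter windows and were tested.

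The rule for named genes took the 10 strongest members with at least 200 exonic bp, and the 5 strongest with at least 100 bp of first, internal or last exon, all with both replicates. No first exon met it, and 1 gene it named is not reported here. It also took the 8 genes with most coding bases, the 5 with most internal exons and up to 4 per gene list. Members and lists were chosen with earlier results of these data known, so list counts are descriptions. Printed sequences were chosen after their values were seen. Alternatives were other lists, thresholds, overlaps, promoter windows and start sites.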

Additional observations from a re-analysis of the deposited data

How the results depend on the processing

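The number of members ranged from 1971 to 2347 when either replicate was left out, and was 1756 on bases covered in both replicates, 683 at a fold enrichment of at least 4 and 1567 with at least 200 exonic bp. Genes with a member ranged from 1732 to 2010 with a replicate left out, and were 676 with a fold of 4 or more and 1459 with at least 200 exonic bp in the member. The share of exon bases in members, 2.55% for all, 2.27% for internal, 2.89% for last and 4.75% for coding bases of last exons, ranged with a replicate left out from 2.05% to 2.27%, 1.78% to 1.98%, 2.37% to 2.63% and 3.77% to 4.38%. On bases covered in both replicates these shares were 1.75%, 1.49%, 2.02% and 3.43%, and for members with a fold of 4 or more they were 0.871%, 0.715%, 1.01% and 1.44%. Start sites of transcripts of any gene gave 2.70% for last exons, and a window of 5 kb gave 5.26% for their coding bases. High-copy bases were 28.3% of member sequence and 32.4% with a fold of 4 or more, and ranged from 27.8% to 28.9% with a replicate left out. In each of these settings last exons stood above internal exons and coding bases of last exons above both. In 52 cases a main value computed under an alternative moved by less than the spread between replicates or, for counts, by less than 1.5 times, and in 23 cases, all given here, it moved by more. No paired analysis was possible because there is 1 group. A list of regions does not show whether an exon outside them lacked the mark or lacked depth, and 2 replicates limit the precision of every SD.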
